A study of Mus musculus with 12 samples.

Results

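The genes of glycolysis and of the transcriptional response to low oxygen were examined in HT22 cells, an immortalized mouse hippocampal cell line, with or without exposure to mesaconitine (MA), an aconitine-type alkaloid of Aconitum plants. The 39 genes were chosen by name: 16 genes of glycolytic steps, 7 glycolysis regulators and transporters, 5 genes of oxygen sensing and 11 other hypoxia targets. All 39 were among the 25239 genes of the expression table, and 6 of them carried 8 of the 2643 peaks in the table of N6-methyladenosine (m6A), a methyl mark on the adenosines of mRNA. Methylated RNA immunoprecipitation sequencing (MeRIP-seq) gave 4 groups of 3 libraries, an input and an IP group from cells with MA and the same from control cells. Input is the fragmented polyadenylated RNA, and IP is the part pulled down by an antibody against m6A. Cells of all groups were wild type HT22; the MA groups received 800 μM MA, dissolved in dimethyl sulfoxide, for 72 h, and the control groups received no MA. Whether the controls received the solvent, and whether the 3 libraries of a group came from separate cultures, is not given in the sources used here.

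Expression is given as the base mean, the mean of normalized read counts over the libraries compared, and as the log2 fold change of MA over control with its standard error (SE) from DESeq2. A gene was called higher or lower at an adjusted p under 0.05. No values of single libraries were analysed, so the spread between libraries enters only through the SE, and the depth of each library is unknown. The expression table does not name the numerator of its fold change; its sign was reversed here to read MA over control. The published sources conflict on this sign: the list of m6A regulators carries it as deposited and reads it as MA over control, whereas the supplementary gene list and the heatmap of autophagy genes by library carry the reverse. Read with the sign as deposited, every direction of expression below would turn, with the same sizes and p-values. The libraries are bulk RNA, in which fewer cells of a kind and less RNA per cell cannot be told apart. Of 10 neuronal markers, 8 had a base mean under 10 and 6 of these, Map2, Snap25, Dcx, Nefl, Nefm and Stmn2, were listed at 0, while Tubb3 stood at 473 and Syn1 at 710. A base mean under 10 was also found for 3 of 5 astrocyte markers, 3 of 5 microglial markers, 3 of 4 oligodendrocyte markers and 3 of 3 endothelial markers. Among the markers above that level, Tubb3 had a log2 fold change of -0.40, the astrocyte marker Slc1a3 of -0.48 and the microglial marker Tmem119 of -0.72 (DESeq2 adjusted p = 0.0145, 1.09e-06 and 0.00111), and their part in the results was not tested.

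Glycolysis splits glucose into pyruvate in the cytosol, and lactate dehydrogenase turns pyruvate into lactate when oxygen or mitochondrial capacity is short. In low oxygen, prolyl hydroxylases of the EGLN family no longer mark the HIF alpha subunits for destruction, and HIF alpha with its partner ARNT switches on genes for glucose uptake, glycolysis, blood vessel growth, pH control and collagen processing. HIF binds a short core, the hypoxia response element, and HIF itself is controlled mainly as a protein, so that its mRNA need not follow its activity. Neurons draw heavily on glucose, and hexokinase, phosphofructokinase and pyruvate kinase are the steps usually named as points of control.

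To show the sequence that most of these genes have in common, the promoters were searched for the HIF core, ACGTG or GCGTG on either strand (read as CACGT or CACGC on the other). RefSeq promoters of the assembly GRCm38.p6, 250 bases before to 50 after a start, were matched for 35 of the 39 genes; Angptl4, Slc2a3, Epas1 and Ndrg1 were not matched. A core was found for 32 of the 35 genes (91.4%), against 46.7% of all 27025 genes in the table. A gene can have several promoters: counted by promoter, 41 of 53 from the matched genes (77.4%) held a core, against 43.8% of all 32851. Promoters of these genes are rich in G and C, and among promoters with a GC content of 60% or more the shares were 95.8% (23 of 24 genes) and 70.9%. The stricter ACGTG alone was found for 68.6% of the matched genes and 21.8% of all genes, and 3 or more matches for 40% and 10.2%. By role, 13 of 16 genes of glycolytic steps, 6 of 6 regulators and transporters, 4 of 4 oxygen-sensing genes and 9 of 9 other hypoxia targets held a core. The other hypoxia targets had 14 promoters, of which 10 (71.4%) held a core. The 3 matched genes with none in this window were Gpi1, Tpi1 and Eno2. The 7 stretches below belong to members called higher or lower in expression, with each core in capitals (2 cores each in Vegfa and Ldha, and 2 that overlap in Higd1a) and the strand of the gene shown 5′ to 3′; a match is a description of letters and not a bound site.
Hk2 (chr6:82774490-82774518, minus strand): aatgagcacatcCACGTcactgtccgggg
Vegfa (chr17:46025358-46025386, minus strand): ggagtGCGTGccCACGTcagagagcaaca
Adm (chr7:110627591-110627619, plus strand): ggcaaatctgacCACGCccaccgtccgcc
P4ha1 (chr10:59323268-59323296, plus strand): tgtgacagagcgCACGTagcgagggctgc
Ldha (chr7:46845817-46845845, plus strand): aaggccccgcccGCGTGctgctctGCGTG
Pgk1 (chrX:106186957-106186985, plus strand): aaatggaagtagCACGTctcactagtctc
Higd1a (chr9:121857846-121857874, minus strand): tctagcctGCGTGCGTGgcgttcgcggag
With the RefSeq start counted as 0, the core in the middle of the stretch begins at -52 in Hk2, -54 in Adm, -16 in P4ha1, -131 in Pgk1, -66 in Higd1a, -211 in Vegfa and 25 in Ldha. The Vegfa, Ldha and Higd1a stretches belong to RefSeq starts inside the span that GENCODE gives the gene. Genes with a core stood on both sides of the comparison: Hk2 and Vegfa were higher after MA, and Adm, P4ha1, Ldha, Pgk1 and Higd1a lower.

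Of the 39 genes, 38 had a fold change and 37 an adjusted p. After MA, 3 were called higher (Hk2, Gpi1 and Vegfa) beside 7.07% of all 13427 genes with an adjusted p, and 11 were called lower (Angptl4, Adm, P4ha1, Ldha, Pfkl, Higd1a, Pdk1, Eno1, Pgk1, P4ha2 and Arnt) beside 8.27% of all genes. Called genes made up 37.8% of the 37, against 15.3% of all genes. Calls were more frequent at high expression: with a base mean of 1000 or more, 24% of all genes were called and 13 of the 27 members (48.1%). The median log2 fold change of the 38 was -0.10 and that of all genes -0.01. By an unadjusted p under 0.05 with a change of over 1.2-fold, 2 members were higher and 10 lower, beside 6.80% and 7.07% of all genes. By an adjusted p under 0.05 with over 1.2-fold change the counts were 2 and 8, beside 5.70% and 6.26%, and with over 1.5-fold change 1 and 3, beside 1.25% and 2.49%. Most changes were small: of the 14 called genes, Hk2, Angptl4, Adm and P4ha1 changed by more than 1.5-fold, and Gpi1, Pgk1, Arnt and P4ha2 by less than 1.2-fold.

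**Figure D1:**
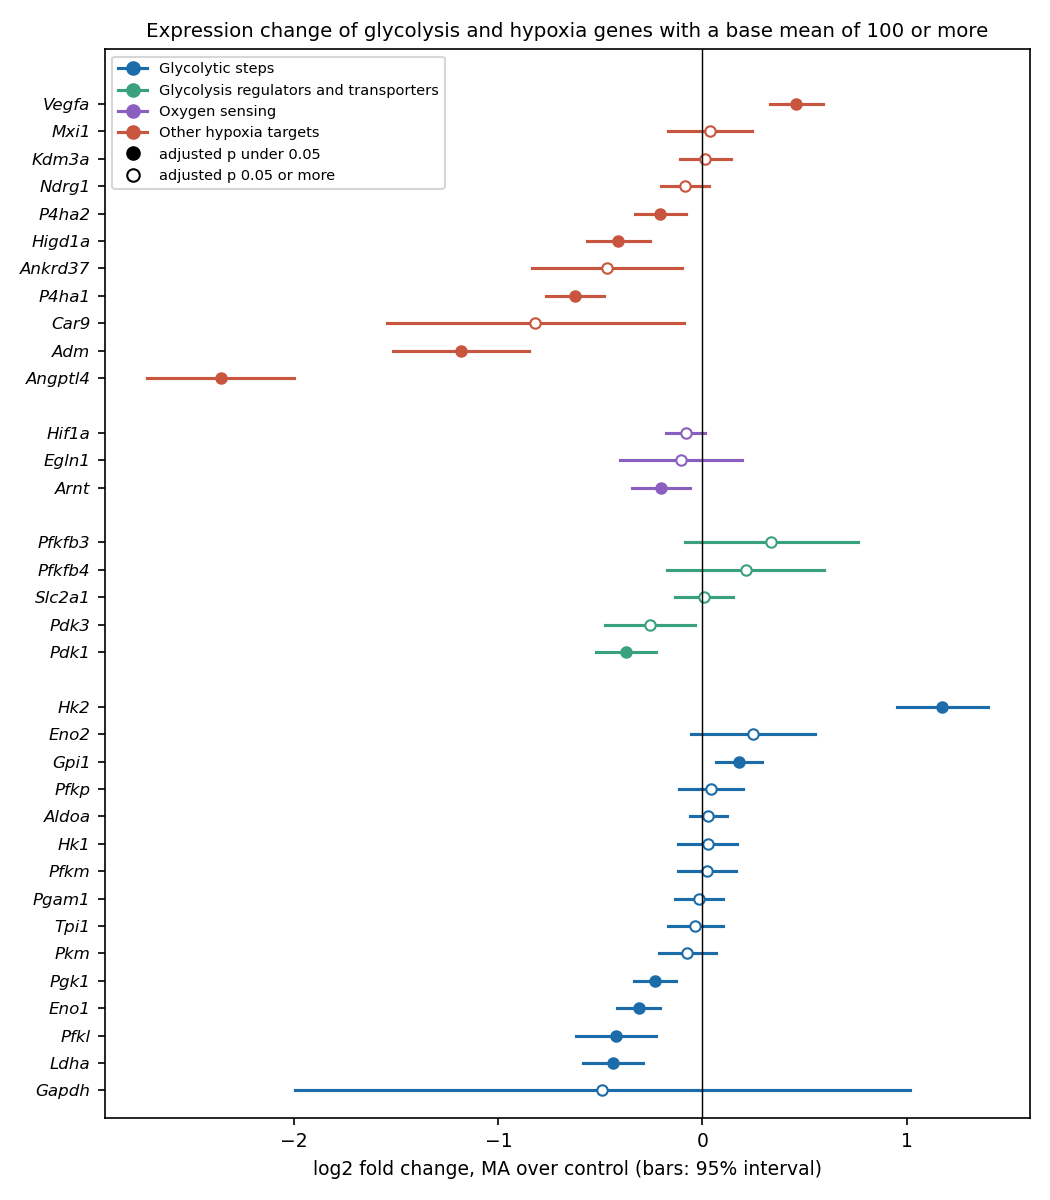
Log2 fold change of expression, MA over control (x axis), for the 34 genes with a base mean of 100 or more, ordered within the 4 role groups. Points are the fitted values, bars their 95% intervals, and filled points have an adjusted p under 0.05; Hk2 stands furthest to the right at 1.17 and Angptl4 furthest to the left at -2.36.

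Among the 16 genes of glycolytic steps, 2 were higher, 4 lower and 10 not called, with a median log2 fold change of -0.03. Hexokinase, which traps glucose in the cell as glucose 6-phosphate, showed the largest change of the pathway. Hk2 (chr6:82725025-82774454, minus strand), the inducible isozyme, had a base mean of 1909, which the fold change splits into about 1172 in control and 2646 in MA. Its log2 fold change was 1.17 (SE 0.11, 95% interval 0.95 to 1.40, DESeq2 adjusted p = 1.15e-22), a 2.26-fold higher level after MA. Hk1, the constitutive isozyme, had a log2 fold change of 0.03 (SE 0.07) at a base mean of 9996. Per kilobase of transcript, Hk2 rose from 8.41% of the hexokinase message in control to 16.9% in MA, and Hk1 remained the main form at 83.1%. With the sign as deposited, the shares in control and MA would be exchanged.

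Gpi1, glucose 6-phosphate isomerase, catalyzes the following step and was the other glycolytic gene called higher. Its implied mean was 11443 in control and 12959 in MA, a log2 fold change of 0.18 (SE 0.06, DESeq2 adjusted p = 0.0139). Cut into stretches of 50 bases, 19.3% of the Gpi1 transcript is also found elsewhere in the transcriptome, so part of its count is uncertain.

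Phosphofructokinase commits sugar to glycolysis and is built from 3 subunits with different genes. Pfkl, the liver-type subunit, was lower after MA, with implied means of 2652 and 1977 and a log2 fold change of -0.42 (SE 0.10, DESeq2 adjusted p = 0.000342). The muscle-type Pfkm (0.02, SE 0.07) and the platelet-type Pfkp (0.04, SE 0.08) were not called. The share of Pfkl in the phosphofructokinase message per kilobase went from 21.7% to 16.9%, that of Pfkm from 49% to 51.7% and that of Pfkp from 29.3% to 31.4%.

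The genes of the middle steps, from aldolase to triose phosphate isomerase, showed changes close to 0. Aldoa, the aldolase of muscle and most other cells, had a log2 fold change of 0.03 (SE 0.05) at a base mean of 23155. Tpi1, triose phosphate isomerase, stood at -0.03 (SE 0.07). Aldoc, the brain-type aldolase, was nearly absent from these cells, with a base mean of 8.77 and 0.0211% of the aldolase message per kilobase. Gapdh, a gene widely used as a reference, was measured poorly: its log2 fold change of -0.49 had an SE of 0.77, against 0.05 for Pgk1 and 0.07 for Tpi1.

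Lower levels were found for Pgk1, Eno1 and Ldha, which act in the later part of the pathway. Pgk1, the first enzyme to yield ATP, went from an implied mean of 14597 to 12404, a log2 fold change of -0.23 (SE 0.05, DESeq2 adjusted p = 0.000149). Eno1, the ubiquitous enolase, went from 21239 to 17106 (log2 fold change -0.31, SE 0.05, adjusted p = 2.64e-07). Ldha, the lactate dehydrogenase subunit that favors lactate formation, went from 11265 to 8314 (log2 fold change -0.44, SE 0.07, adjusted p = 1.3e-07), a 1.35-fold lower level. Between them in the pathway, Pgam1 (-0.02, SE 0.06) and Pkm (-0.07, SE 0.07), the phosphoglycerate mutase and pyruvate kinase, were not called. Eno2, the enolase of neurons, had a log2 fold change of 0.25 (SE 0.15, DESeq2 adjusted p = 0.336) and made up 1.98% of the enolase message per kilobase.

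Several of these glycolytic genes share long stretches with pseudogenes, and their values are therefore uncertain. Of the 28 stretches of 50 bases in Gapdh, 23 are shared, with 137 pseudogenes among the genes that hold them. The share was 72.5% for Eno1, 66.7% for Pgk1, 40% for Pgam1, 29.2% for Pkm and 16.7% for Ldha. Eno1 shares 28 stretches with Eno1b, a near copy with a base mean of 6670, whose log2 fold change was also -0.31 (SE 0.06, DESeq2 adjusted p = 3.65e-06). How reads that fit several genes were counted is not given in the sources used here. Of the 28 members with no such stretch, 2 were higher and 7 lower. Called genes made up 34.6% of those with an adjusted p, against 15.3% of all genes.

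Levels along the pathway ran over several orders of magnitude. Per kilobase of transcript and over both groups, Pkm had a base mean of 15283, Aldoa 14948, Eno1 9458, Pgk1 7397, Tpi1 5893, Ldha 5394, Gpi1 4231, Pgam1 3490 and Hk1 2337. Lower down were Pfkm at 1614, Pfkp at 973, Pfkl at 621 and Hk2 at 346. Gapdh stood at 629, and the level of Aldoa was 23.8 times and that of Pkm 24.3 times as high, on a gene in which most stretches are shared with pseudogenes. The spread of these levels between libraries is unknown, so the order of near neighbors such as Pkm and Aldoa is not resolved.

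**Figure D2:**
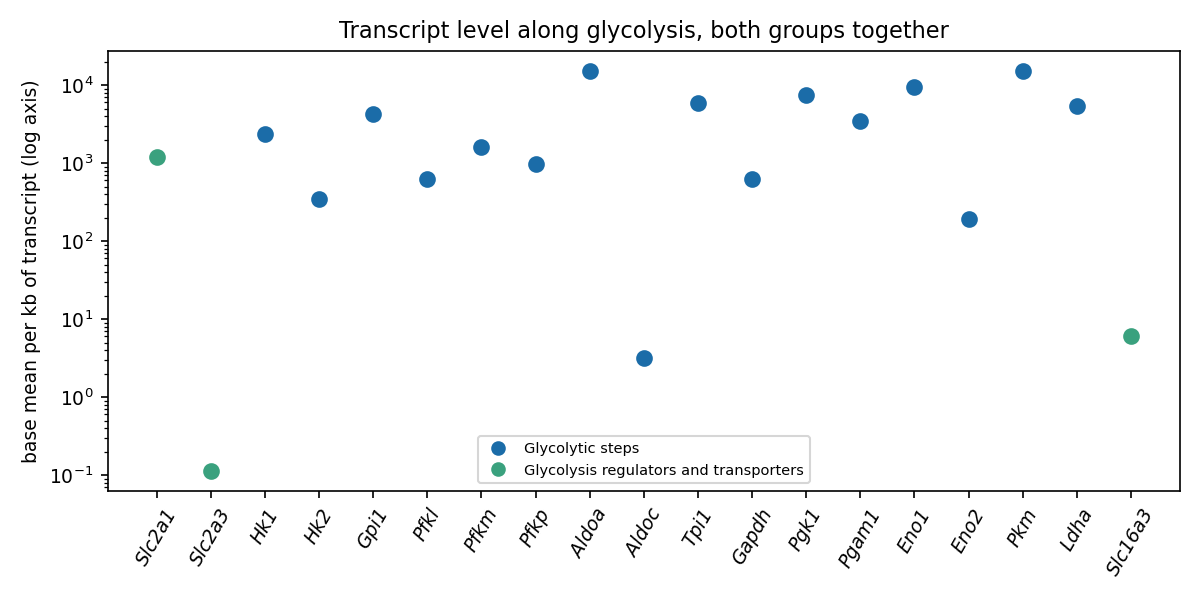
Base mean per kilobase of transcript (log axis) for the glucose transporters, the glycolytic genes in pathway order and the lactate exporter Slc16a3, both groups together; points are single fitted means without error, since no values of single libraries were used. Pkm (15283) and Aldoa (14948) are highest, and Slc2a3, Aldoc and Slc16a3 lie far below the other genes.

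Of the 7 regulators and transporters, Pdk1 alone was called. Pdk1, a kinase that shuts off pyruvate dehydrogenase, had implied means of 2529 in control and 1952 in MA, with a log2 fold change of -0.37 (SE 0.08, DESeq2 adjusted p = 1.56e-05). Pdk3, another kinase of this family and the more abundant per kilobase, stood at -0.26 (SE 0.11, adjusted p = 0.111). Of the glucose transporters, Slc2a1 (GLUT1) had a base mean of 3924 and a log2 fold change of 0.01 (SE 0.07), and Slc2a3 (GLUT3), the neuronal transporter, had a base mean of 0.451 and no adjusted p. Slc16a3, which exports lactate, had a base mean of 25.9 and a log2 fold change of 0.01 (SE 0.63). Pfkfb3 and Pfkfb4, which set the level of fructose 2,6-bisphosphate, the activator of phosphofructokinase, stood at 0.34 (SE 0.22) and 0.21 (SE 0.20), with DESeq2 adjusted p of 0.358 and 0.591. Their intervals, -0.09 to 0.76 and -0.17 to 0.60, hold changes as large as those called in other genes.

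In the oxygen-sensing group, Arnt alone was called, and its change was small. Arnt, the partner subunit of the HIF proteins, had a log2 fold change of -0.20 (SE 0.07, DESeq2 adjusted p = 0.0378). Hif1a, which encodes the oxygen-regulated subunit, was among the most abundant of the 39 genes with a base mean of 20628, and its log2 fold change was -0.08 (SE 0.05, 95% interval -0.18 to 0.01, adjusted p = 0.306). Epas1, which encodes HIF-2 alpha, had a base mean of 3.75. Of the prolyl hydroxylases that read oxygen, Egln1 stood at -0.11 (SE 0.15) and Egln3 was listed at 0.

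The 11 other hypoxia targets held the largest decreases. Of these, 1 was higher, 5 lower and 5 not called, with a median log2 fold change of -0.41. Angptl4 (chr17:33773750-33781830, minus strand), a secreted inhibitor of lipoprotein lipase that also acts on vessels, had a base mean of 2160, with implied means of 3616 in control and 704 in MA. Its log2 fold change was -2.36 (SE 0.18, 95% interval -2.72 to -2.00, DESeq2 adjusted p = 3.09e-35), a 5.14-fold lower level. Adm (chr7:110627661-110629820, plus strand), which encodes the vasodilator peptide adrenomedullin, went from an implied mean of 436 to 192. The log2 fold change of Adm was -1.18 (SE 0.17, 95% interval -1.51 to -0.85, adjusted p = 1.65e-10), a 2.27-fold lower level. Vegfa (chr17:46016993-46032369, minus strand), the main growth factor of blood vessels, moved in the other direction. Its implied mean was 2468 in control and 3397 in MA, a log2 fold change of 0.46 (SE 0.07, 95% interval 0.33 to 0.59, DESeq2 adjusted p = 1.65e-10).

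The collagen prolyl 4-hydroxylases, which let collagen form a stable triple helix, were both lower. P4ha1 fell from an implied mean of 18139 to 11764 (log2 fold change -0.62, SE 0.07, DESeq2 adjusted p = 1.19e-15), and P4ha2 had a log2 fold change of -0.21 (SE 0.06, adjusted p = 0.0118). Higd1a, a small mitochondrial protein induced by hypoxia, fell from 1944 to 1460 (log2 fold change -0.41, SE 0.08, adjusted p = 5.46e-06). Car9, the carbonic anhydrase often used as a marker of hypoxia, had a base mean of 106 and stood at -0.82 (SE 0.37, adjusted p = 0.132), and Ankrd37 stood at -0.47 (SE 0.19, adjusted p = 0.0734). Close to 0 were Ndrg1 (-0.08, SE 0.06), the MYC antagonist Mxi1 (0.04, SE 0.11) and the histone demethylase Kdm3a (0.01, SE 0.06).

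Set side by side, the 16 glycolytic genes had 6 calls, which pointed in both directions, and log2 fold changes from -0.49 to 1.17 at a base mean of 100 or more. The 11 other targets also had 6 calls, 5 of them lower, over a range of -2.36 to 0.46. Weighted by the inverse of the squared SE, the mean log2 fold changes were -0.05 and -0.18. Called genes made up 37.5% of the glycolytic list and 54.5% of the other targets, against 15.3% of all genes. Of all genes with a base mean of 1000 or more, 24% were called, and the median base means of the lists were 7833 and 2881. No test of the difference between the lists was run, since their genes share the same libraries and were chosen with earlier results known.

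Genes of the same pathways outside the 39 were called in both directions. Of 36 other glycolysis and pyruvate genes, 24 had an adjusted p, of which 4 were higher and 3 lower. Called genes made up 29.2% of the 24, against 15.3% of all genes, and the median log2 fold change was 0.09. Eno3, the muscle enolase, stood at -0.67 (SE 0.15) and Pdk4, another pyruvate dehydrogenase kinase, at -0.58 (SE 0.14), whereas Pdha1, a subunit of pyruvate dehydrogenase, stood at 0.19 (SE 0.04) and Ldhb, the lactate dehydrogenase subunit that favors pyruvate formation, at 0.35 (SE 0.08). Their DESeq2 adjusted p were 0.000138, 0.000413, 0.000383 and 0.000615. Ldha and Ldhb, the subunits that make up the same tetramer, were thus called in opposite directions. Of 12 other HIF pathway genes, 11 had an adjusted p and Cited2 alone was called (9.09% of the 11, below the share of all genes). Cited2, a HIF-induced competitor for the coactivator p300, stood at -0.40 (SE 0.10, DESeq2 adjusted p = 0.000884). Of 33 further hypoxia targets, 27 had an adjusted p, of which 3 were higher and 7 lower (37% called), with a median of -0.17. The collagen lysyl hydroxylase Plod1 (-0.50, SE 0.07), the mitochondrial Fam162a (-0.50, SE 0.07) and the mitophagy receptor Bnip3 (-0.37, SE 0.07) were lower, and the cytokine Mif (0.47, SE 0.09) was higher (DESeq2 adjusted p = 9.23e-11, 2.39e-10, 1.09e-06 and 1.06e-05).

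In the m6A table, Adm, Vegfa, Eno2 and Pgam1 had a single peak each, and Hk2 and Kdm3a a pair each. The m6A writer complex prefers the motif DRACH, in which D is A, G or T, R is A or G and H is A, C or T. The following stretches of the mm10 genome show the motifs that lie within a peak in capitals, on the strand of the gene, for the 4 peaks whose genes are discussed most below and for the glycolytic Pgam1.
Adm (chr7:110629239-110629267, plus strand): cggggcGGACTgAGACAatcctgcagaga
Vegfa (chr17:46017473-46017501, minus strand): ctcccagatcggTGACAgtcactagcttg
Hk2 (chr6:82726321-82726349, minus strand): aggcagggatggAGACAgggtggttcgct
Eno2 (chr6:124767062-124767090, minus strand): gtggagcaggagAAACTggacaacctgat
Pgam1 (chr19:41918149-41918177, plus strand): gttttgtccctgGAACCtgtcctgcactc
The Adm peak, of 175 bases, held 8 such motifs and the Vegfa peak, of 75 bases, held 2. A motif was found in 60% of the 895 peaks of 50 bases, a share that is not comparable with counts in these wider peaks. For the Hk2 peak at exons 8 and 9 the search listed none. Its 25 exonic bases are split over these exons, which is too little sequence to show that a motif is absent. Of the 8 peaks, those of Adm, Vegfa, Kdm3a, Pgam1 and the exon 18 peak of Hk2 lay wholly 3′ of the coding region, and the Eno2 peak and the other Hk2 peak in coding exons.

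The change of m6A was given as the log2 IP to input ratio in MA minus that in control, tested with exomePeak2. Read counts are pooled over the 3 libraries of a group, and whether the exomePeak2 test used pooled reads is not given. None of the 8 peaks was called higher, beside 14.9% of all 2642 tested peaks, and 1 was called lower, that of Adm, beside 2.57% of all peaks. By an unadjusted p under 0.05 with over 1.2-fold change the counts were the same, and a Wald test on the pooled reads called the peaks of Eno2 and of Hk2 exons 8 and 9 higher, beside 32.3% of all 2643 peaks, and that of Adm lower, beside 8.85%. Centred on the median of all peaks, the Wald test called 0 of the 8 higher, beside 17.6%, so that both higher calls were lost, and called Adm and a Kdm3a peak lower, beside 18.6%. Of the 8 changes 5 were positive, as were 66.1% of those of all peaks, and their median was 0.17 beside 0.20. Intervals given for these peaks cover counting error only.

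The Adm peak (chr7:110629177-110629351, plus strand) spans 175 bases of the last exon, exon 4, 3′ of the coding region. The gene Gm28863 also overlaps it, and its part in these reads was not tested. In control the Adm peak held 111 input and 275 IP reads, and in MA 118 input and 76 IP reads, so that control IP stood above the remaining groups. The log2 IP to input ratio went from 1.71 in control to -0.78 in MA, a change of -2.37 as deposited (exomePeak2 adjusted p = 1.64e-07), and this peak had the smallest p of all peaks that were lower. From the reads themselves the change was -2.48 (95% counting interval -3.01 to -1.96). Scaled to the reads in all peaks, IP reads were 4.88-fold lower after MA, and input reads had a log2 ratio of 0.51 (interval 0.14 to 0.89). The input reads of this peak and the fold change of the whole gene, -1.18 with the reversed sign, thus had opposite signs, whereas with the sign as deposited they would have the same sign; the cause was not tested.

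**Figure D3:**
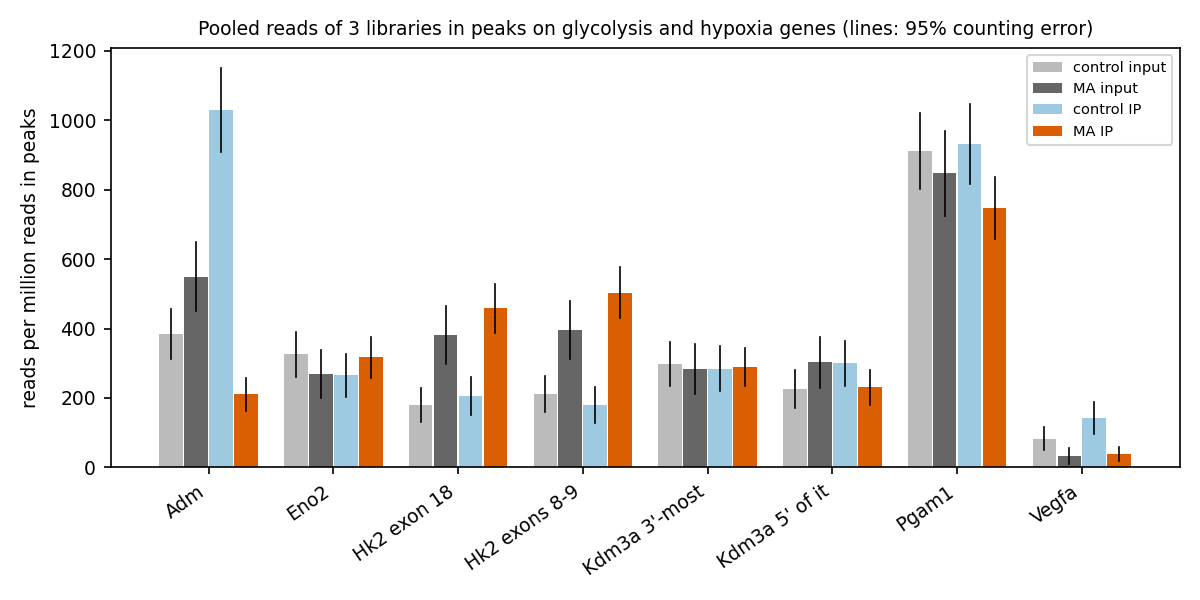
Reads per 1000000 reads in peaks (y axis) in the 8 peaks on glycolysis and hypoxia genes, as bars for the input and IP groups of control and MA; each bar pools 3 libraries and lines are 95% counting intervals. In the Adm peak control IP stands at 1030 and MA IP at 211, and both Hk2 peaks are higher in MA than in control in IP and in input.

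Both Hk2 peaks gained reads after MA in IP and in input alike. The peak in exon 18 (chr6:82726302-82726351) held 52 input and 55 IP reads in control, and 82 input and 165 IP reads in MA, a log2 ratio of MA to control of 1.15 in IP and 1.08 in input. The peak at exons 8 and 9 (chr6:82738515-82739537) held 61, 48, 85 and 181 reads in the same order, a log2 ratio of 1.48 in IP and 0.91 in input. These ratios lay near the expression change of Hk2 with the reversed sign, 1.17, and would be opposite in direction to it with the sign as deposited. The m6A changes were 0.25 (exomePeak2 adjusted p = 0.618) and 0.66 (adjusted p = 0.166), and neither was called.

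The Vegfa peak (chr17:46017443-46017517) lay 3′ of the coding region in exon 7 and was thinly covered, with 24 input and 38 IP reads in control, and 7 input and 14 IP reads in MA. Its m6A change was -0.06 (exomePeak2 adjusted p = 0.916), and from the reads -0.20 with a counting interval of -1.71 to 1.30, so that changes of several fold could not be detected at this depth. Its reads were lower after MA both in IP (log2 ratio -1.87, interval -2.76 to -0.99) and in input (-1.35, interval -2.57 to -0.14), while the gene was called higher in expression with the reversed sign and would be lower, as the reads were, with the sign as deposited. The Eno2 peak in exons 4 and 5 held 94 input and 71 IP reads in control, and 58 input and 114 IP reads in MA, a change of 0.60 (adjusted p = 0.206). For Pgam1 the change was 0.09 (adjusted p = 0.842) on 263, 249, 182 and 269 reads, the best covered of the 8 peaks. The Kdm3a peaks, both in exon 26, the last, had changes of 0.27 and -0.32 (adjusted p = 0.586 and 0.507).

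**Figure D4:**
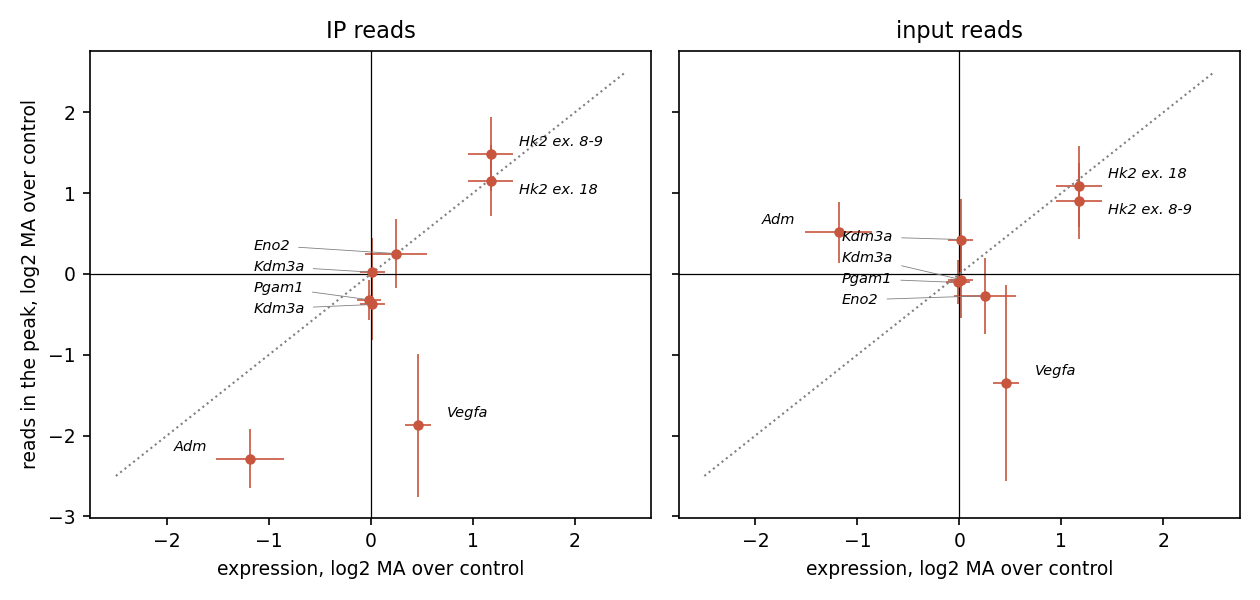
Log2 ratio of MA to control reads in each of the 8 peaks (y axis; IP at left, input at right) against the log2 fold change of expression of its gene (x axis, reversed sign). Bars are 95% intervals, of counting error only on the y axis, and the dotted line marks equal change; Hk2 lies near the line in both panels, Adm below 0 in IP and above it in input, and Vegfa below 0 in both.

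The reads in peaks were also set beside expression over all genes, since they bear on the reversed sign. Of 2470 peaks on genes with a p-value, the IP reads changed in the direction of the reversed fold change at 1516 and the input reads at 1219, with Spearman correlations across peaks of 0.28 and 0.01. At the 166 peaks whose gene had an expression p under 0.0001, the counts were 134 for IP and 89 for input reads and the correlations 0.59 and 0.02, and the input reads do not settle the sign. With the peaks of the 39 genes left out, the counts were 131 and 87 of 162. The m6A change also had a correlation with the reversed fold change, of 0.18 over the 2470 peaks and 0.44 at the 166. Between the changes of IP and of input reads, the correlations were -0.39 and -0.17. These peaks share the same pooled libraries and their depth, and no p is given. What these relations mean for the m6A change of a single gene such as Adm was not tested. The expression table does not state which libraries entered its comparison.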

How the data were processed

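MeRIP-seq libraries of HT22 cells (3 control input, 3 control IP, 3 MA input, 3 MA IP) were grouped by the sample titles. Per the labels and the methods of the study, the authors used fastp on the reads, HISAT2 against mm10 for alignment, StringTie for gene levels and DESeq2 for the comparison, and called peaks and their changes with exomePeak2 (Poisson generalized linear model); versions are not given in the sources used here. The library kit is stranded and carries unique molecular identifiers; whether duplicates were removed by them is not given.

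The deposited expression table holds the base mean (a normalized signal), the log2 fold change, its standard error and Wald statistic (scores) and p-values, with no values of single libraries. The deposited peak table holds read counts pooled over the libraries of a group, log2 ratios of IP to input and p-values. These are the authors' own comparisons and are used as such. The deposited p-value and Benjamini-Hochberg adjusted p-value were kept, and genes or peaks were called at an adjusted p under 0.05. There were 0 columns of single libraries left out. Replicates are not stated to be separate cultures, so the DESeq2 p-values of expression measure the spread between these libraries, which may be technical. The peak p-values rest on reads that PCR can link, and whether reads were pooled for that test is not given. The counting intervals cover counting error only.

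The deposited log2 fold changes of expression were turned in sign to read MA over control. Means of each group were computed from the base mean and the fold change, with 3 libraries in each group assumed. Intervals are 1.96 SE. Levels per kilobase divide the base mean by the length of the longest protein-coding GENCODE M21 transcript, and 50-base stretches of that transcript were looked up in the transcripts of all other genes. Peaks were placed on GENCODE M21 exons, and DRACH and HIF motifs were searched by script. Python 3.11.15 with pandas 2.3.3, numpy 2.4.6, scipy 1.17.1 and pysam 0.24.0 was used, and the pooled-read test was tested on simulated data.

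The 39 genes, their role groups and the wider lists were chosen with earlier results of these data known, so lists are described by counts and medians with no test. Members called in expression, members with a peak, and Adm, Vegfa and Angptl4 are given with full values; of each wider list at most the 4 called genes with the smallest adjusted p are named.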

Additional observations from a re-analysis of the deposited data

How the results depend on the processing

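The alternatives for expression changed thresholds, adjustments or filters and reused the deposited fold changes, so they could not turn the direction of a gene. For the called genes, 52 values kept their call and 18 kept their direction but not the call, each under a fold threshold. The called Adm peak kept its call under both rescalings, and of the values of uncalled peaks 11 stayed within the counting error and 3 moved. With an adjusted p under 0.05 and a change of over 1.5-fold, 1 member was higher (Hk2, beside 1.25% of all genes) and 3 lower (Angptl4, Adm and P4ha1, beside 2.49%). Restricted to members with no stretch shared with another gene, an alternative chosen after seeing the data, 2 were higher and 7 lower. Called genes made up 34.6% of those with an adjusted p, beside 15.3% of all genes. Benjamini-Hochberg adjustment over all genes with a p-value, or over genes with a base mean of at least 100, gave 3 higher and 11 lower (beside 5.51% and 6.43%, or 9.26% and 10.2%), and a 1.2-fold threshold on top of the adjusted p gave 2 and 8 (beside 5.70% and 6.26%). As a mean weighted by the SE, the value for the other hypoxia targets was -0.18 in place of the median of -0.41 and that of the regulators and transporters was -0.15 in place of 0.01. Among peaks, a Wald test on the pooled reads called 2 higher, Eno2 and Hk2 exons 8 and 9, beside 32.3% of all peaks, and the same test centred on the median of all peaks called 0 higher, beside 17.6%, and 2 lower, Adm and a Kdm3a peak, beside 18.6%; the cause was not tested. Scaled by all reads in peaks, the Adm change was -2.80 and the Kdm3a change -0.80, and the uncalled Pgam1 change went from 0.09 to -0.21, or to -0.12 when centred. No paired analysis was possible because values of single libraries were not analysed, and for the same reason no library was left out in turn. The intervals of Aldoc and Epas1, at SE of 1.70 and 2.02, hold the changes called in other members, and the Vegfa peak rests on 7 MA input reads.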

Other observations

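The partners of the angiogenic members were present in part. Of 15 ligands and receptors of the vascular endothelial growth factor, adrenomedullin and angiopoietin families, 11 had an adjusted p. Of these, 3 were higher and 1 lower after MA (36.4% called, against 15.3% of all genes). Nrp2, a neuropilin that serves as a coreceptor for these growth factors, had a base mean of 8904 and a log2 fold change of 0.68 (SE 0.08, DESeq2 adjusted p = 2.29e-16). Its relative Nrp1 stood at -0.30 (SE 0.08, adjusted p = 0.00395), so that the neuropilins were called in opposite directions. Vegfb, a relative of Vegfa, was higher at 0.62 (SE 0.09, adjusted p = 1.82e-09), and so was Angptl2, a relative of Angptl4, at 0.47 (SE 0.11, adjusted p = 0.00063). Angptl2 and Angptl4 thus also differed in direction. The receptor genes Kdr and Flt1 had a base mean of 0.493 and 8.11, and Calcrl, the receptor of adrenomedullin, of 217 with a log2 fold change of -0.09 (SE 0.20). Ramp1, Ramp2 and Ramp3, the proteins that make Calcrl bind adrenomedullin or its relatives, had base means of 2.11, 0.602 and 55.7.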
